A study of Homo sapiens with 8 samples.

Results

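The Rnd subfamily of small GTPases, RND1, RND2 and RND3 (also called RhoE), was examined in the human glioblastoma line U87 after RNA interference against RND3. The members were taken as all probes whose transcript accession maps to 1 of the 3 gene symbols. Each of the 3 genes had 1 probe, out of 42405 probes and 19483 gene symbols on the array. All cells had been grown to 70% confluency and reverse transfected. They received either non-silencing siRNA (siControl; NSC or control in the labels) or siRNA against RND3 (siRND3; RhoE KD in the labels), and no untransfected cells were analysed here. Total RNA was measured with Cy3 on 1 array per sample, with 3 siControl and 3 siRND3 arrays at 24 h and 1 array of each at 48 h. The knock-down was transient. The study's methods describe a pair of siRNA oligos against RND3, and neither the methods nor the labels say which array received which, or whether replicates came from separate transfections, so the p-values measure only the spread between these samples.

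Rnd proteins are atypical small GTPases. They bind GTP but hydrolyse it little or not at all, so they stay in the GTP-bound form and are controlled mainly through their amount, their lipid anchor, phosphorylation and binding to adaptor proteins. RND3 binds the kinase ROCK1 and the RhoA-inactivating proteins ARHGAP5 and ARHGAP35, and it opposes RhoA signalling to the actin cytoskeleton. RND1 acts with plexin receptors in the loss of cell adhesion and in axon guidance, and RND2 is best known for its part in the migration of newborn neurons in the cortex.

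In build GRCh38.p14 of the RefSeq annotation, RND3 lies on chromosome 2 between positions 150468193 and 150487695, RND1 on chromosome 12 between 48857145 and 48865870, and RND2 on chromosome 17 between 43025231 and 43032041. The RND3 probe (A_23_P142849, for NM_005168) was printed as 10 spots per array. The RND1 probe (A_23_P53370, for NM_014470) and the RND2 probe (A_33_P3382860, for NM_005440) were printed as 2 spots each. None of these spots was saturated or marked as an outlier. Values are the log2 of the background-corrected scanner signal after quantile normalisation, so a step of 1 is a doubling, and levels of different probes cannot be set against each other.

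Across the series, between 68.3% and 70.7% of the probes on an array stood well above background, and pairs of 24 h arrays correlated at r between 0.988 and 0.991 within a group and between 0.985 and 0.988 between groups. All 8 arrays lay on 1 slide, with the siRND3 arrays in 1 row and the siControl arrays in the other, so the effect of a row and that of the siRNA cannot be told apart. Of the glioma or glial markers, VIM, NES and CD44 were well above background on all 8 arrays. S100B was on 1 array, and GFAP and SOX2 were on none. Of 12 markers of endothelial, leukocyte, epithelial and neuronal cells, 7 were well above background on all 8 arrays and 3 on none (CDH1, RBFOX3 and STMN2). Of the 12, 8 were tested at 24 h, where PECAM1, an endothelial adhesion molecule, passed as lower (−0.99, adjusted p = 0.0216 by limma) and none as higher, against 16.4% of all genes that changed. The other tested PECAM1 probe gave −0.58 and did not pass (adjusted p = 0.0640 by limma). The summed linear level of the 3 endothelial markers ranged from 254 to 283 in siControl and from 257 to 285 in siRND3 at 24 h, and was 323 and 261 at 48 h. Of the glioma or glial markers, CD44 was lower (−0.58, adjusted p = 0.00721 by limma) and NES higher (0.41, adjusted p = 0.0472 by limma) in siRND3 at 24 h. The other NES probe gave 0.23 and did not pass (adjusted p = 0.196 by limma). The summed level of the 6 glioma or glial markers ranged from 221027 to 234800 in siControl and from 186696 to 215010 in siRND3 at 24 h, without overlap, and was 220154 and 155819 at 48 h. For comparison, 14% of all probes had all siRND3 arrays below all siControl arrays at 24 h. This linear sum follows its brightest probes, VIM (17.38 in siControl at 24 h) and CD44 (15.78). VIM differed by −0.081 at 24 h and did not pass (adjusted p = 0.596 by limma). The part of these markers in the results below was not tested.

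RND3 was examined first, since it is the targeted gene and checks the labels. The RND3 transcript fell to 31.7% of its siControl level at 24 h and stood at 31.9% on the single pair of arrays at 48 h. The log2 values in siControl cells at 24 h were 11.88, 11.91 and 11.90. Those in siRND3 cells at 24 h were 10.12, 10.18 and 10.42. At 48 h the siControl array read 11.48 and the siRND3 array 9.84. Every siRND3 array lay below every siControl array, at both times. At 24 h this held for 14% of all probes. All 10 RND3 spots were well above background on all 8 arrays.

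**Figure D1:**
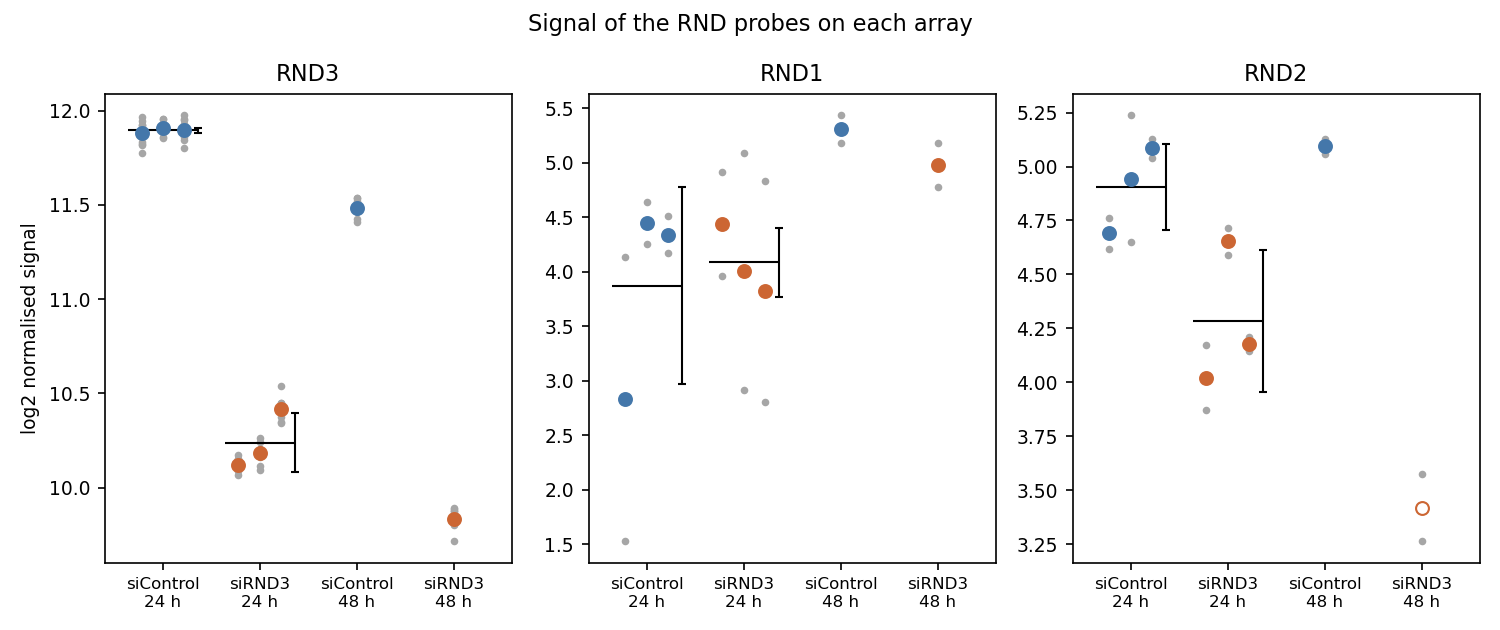
Log2 normalised signal (vertical axis, a separate scale for each gene) of the RND3, RND1 and RND2 probes in the 4 groups. Large points are arrays, small grey points are the spots of the probe on that array, the open point was not well above background, and lines with bars are the mean and SD of the 3 arrays of a 24 h group. RND3 separated by treatment at both times, RND1 overlapped at 24 h, and the lowest RND2 value was that of the siRND3 array at 48 h.

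At 24 h RND3 averaged 11.90 ± 0.013 (SD, n = 3) without the knock-down and 10.24 ± 0.16 (SD, n = 3) with it. The log2 difference was −1.66 (SE 0.095, 95% confidence interval −1.88 to −1.43), with an adjusted p of 0.000345 by limma over the 28759 probes tested. Permuting the 6 arrays exactly (two-sided) gave p = 0.1, which is the lowest value possible with 3 against 3. For comparison, 11.6% of all probes passed the same test at 24 h, and 6.38% passed as lower. Among all probes tested, 113 had a larger fall than RND3 at 24 h, which is 0.393% of them. The transcript left in each siRND3 array at 24 h was 29.2%, 30.5% and 35.8% of the siControl mean. The third siRND3 replicate therefore kept the most RND3, and the spread among siRND3 arrays was wider than that among siControl arrays.

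The 10 RND3 spots gave like values. Within an array their SD was between 0.034 and 0.064 on the log2 scale, and taken 1 spot at a time the difference at 24 h ran from −1.71 to −1.60. At 48 h it ran from −1.71 to −1.59. The fitted difference at 48 h was −1.65 (SE 0.16, adjusted p = 0.00140 by limma). That test assumes that single arrays vary like those at 24 h, and 19% of all probes passed it. The difference at 48 h minus that at 24 h was 0.0064 (95% confidence interval −0.45 to 0.46, adjusted p = 0.992 by limma). The interval includes shifts of 0.45 in either direction.

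RND3 was also lower at 48 h than at 24 h in both treatments, by similar amounts that did not pass the test. In siControl cells the log2 value at 48 h was lower by a difference of −0.41 (95% confidence interval −0.73 to −0.088, adjusted p = 0.151 by limma), where 3.56% of all probes passed. In siRND3 cells the difference was −0.40 (95% confidence interval −0.73 to −0.082, adjusted p = 0.118 by limma), where 9.03% of all probes passed. The levels therefore ordered as siControl at 24 h, siControl at 48 h, siRND3 at 24 h and siRND3 at 48 h. The time steps within a treatment did not pass, and the step from siControl at 48 h (11.48) to the highest siRND3 array at 24 h (10.42) was not tested.

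RND2 was dim but lay lower in siRND3 cells at both times. Its log2 values were 4.69, 4.94 and 5.08 on the siControl arrays at 24 h and 4.02, 4.65 and 4.18 on the siRND3 arrays at 24 h. At 48 h they were 5.09 in siControl and 3.42 in siRND3. The groups at 24 h did not overlap, although the lowest siControl array (4.69) and the highest siRND3 array (4.65) lay close together. On the siRND3 array at 48 h neither spot was well above background, whereas both were on each of the other arrays.

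RND2 averaged 4.91 ± 0.20 (SD, n = 3) in the siControl group at 24 h, against 4.28 ± 0.33 (SD, n = 3) in the siRND3 group. The log2 difference was −0.62 (SE 0.18, 95% confidence interval −1.07 to −0.18) and did not pass the test over all probes (unadjusted p = 0.0132, adjusted p = 0.0807 by limma). The exact permutation p was again 0.1, its lowest value. Of all probes, 12% were lower at an unadjusted p under 0.05, and 14% had all siRND3 arrays below all siControl arrays. The second siRND3 replicate stood nearest to the controls, with 83.9% of the siControl mean against 54.1% and 60.3% in the others. Without that array the difference was −0.81 and passed (adjusted p = 0.0357 by limma). SAM, the test named in the methods, gave q = 0.0315 for the same difference. It was −0.14 with normexp background correction and −0.23 on the deposited log2 values, and passed in neither.

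At 48 h the RND2 reading was 3.19-fold lower in siRND3 than in siControl cells. The fitted difference was −1.67 (95% confidence interval −2.44 to −0.91, adjusted p = 0.0144 by limma), without replicate arrays. The siRND3 value was not well above background, so the size of this fold is uncertain. Among all probes, 9.19% passed as lower at 48 h. With normexp background correction the difference was −0.38 and did not pass (adjusted p = 0.0514 by limma), and on the deposited log2 values it was −0.60 and passed (adjusted p = 0.0293 by limma). The difference at 48 h minus that at 24 h was −1.05 (95% confidence interval −1.94 to −0.17) and did not pass either (adjusted p = 0.199 by limma), where 2.73% of all probes did. It was −0.24 with normexp and −0.38 on the deposited log2 values. Between the times, RND2 differed by 0.19 in siControl cells (95% confidence interval −0.44 to 0.81, adjusted p = 0.715 by limma). In siRND3 cells the RND2 reading was 1.82-fold lower at 48 h, where it was not well above background, than at 24 h. The fitted difference was −0.86 (95% confidence interval −1.49 to −0.24, adjusted p = 0.0940 by limma). It was −0.16 with normexp and −0.28 on the deposited log2 values. From the highest level to the lowest, the order was siControl at 48 h, siControl at 24 h, siRND3 at 24 h and siRND3 at 48 h, and no neighbouring pair in it passed the test.

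The raw spots show how near RND2 was to the background. On the siControl arrays the RND2 spot medians lay between 54 and 71 scanner units, over a mean local background between 26 and 34.5. On the siRND3 arrays at 24 h they lay between 50 and 61, and on the siRND3 array at 48 h they were 44 and 48, over a local background of 26.5. The spots differed by −0.57 and −0.68 at 24 h. No spot difference is given at 48 h, where neither spot was well above background on the siRND3 array.

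RND1 showed no difference by treatment that passed the test at either time. Its log2 values were 2.83, 4.44 and 4.34 on the siControl arrays at 24 h and 4.44, 4.003 and 3.82 on the siRND3 arrays. At 48 h they were 5.31 in siControl and 4.98 in siRND3. The groups at 24 h overlapped, and the first siControl replicate stood below all other arrays.

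RND1 averaged 3.87 ± 0.90 (SD, n = 3) in the siControl group at 24 h, against 4.09 ± 0.32 (SD, n = 3) in the siRND3 group. The log2 difference was 0.22 (SE 0.44, 95% confidence interval −0.83 to 1.26, adjusted p = 0.792 by limma), and the exact permutation p was 0.9. The interval includes both a rise of 1.26 and a fall of 0.83. Without the first siControl replicate the sign turned, to −0.30 (adjusted p = 0.414 by limma). At 48 h the difference was −0.33 (95% confidence interval −2.14 to 1.48, adjusted p = 0.847 by limma). The difference at 48 h minus that at 24 h was −0.55 (95% confidence interval −2.63 to 1.54, adjusted p = 0.817 by limma), and it was −0.024 without the first siControl replicate and −0.15 with normexp.

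The 2 RND1 spots did not give the same picture at 24 h. The first was well above background on every array. Its processed signal at 24 h was 18.2, 22.8 and 23.7 on the siControl arrays and 28.7, 33.98 and 26.9 on the siRND3 arrays. The second spot read 2.98, 17.5 and 18.6 on the siControl arrays and 14.9, 7.74 and 6.46 on the siRND3 arrays. It was not well above background on the first siControl replicate or on any siRND3 array at 24 h. Taken alone, the first spot gave a log2 difference of 0.52 (adjusted p = 0.0698 by limma) and the second one of −0.089 (adjusted p = 0.956 by limma). At 48 h, where both spots were well above background on both arrays, they gave −0.26 and −0.40.

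**Figure D2:**
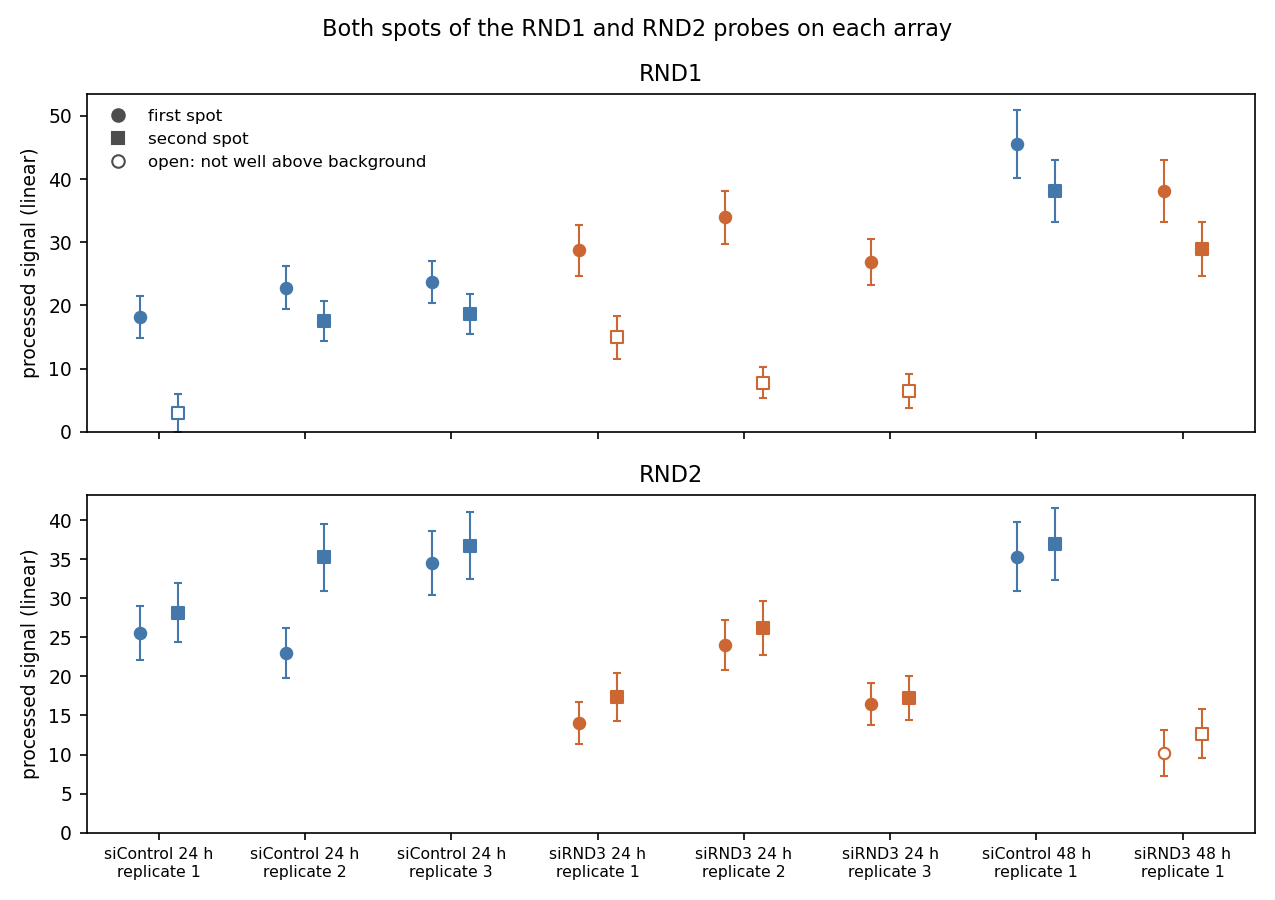
Background-corrected processed signal (vertical axis, linear scanner units) of both spots of the RND1 and RND2 probes on each of the 8 arrays. Circles are the first spot and squares the second, bars are the error the scanner software gave each spot, open symbols were not well above background, blue is siControl and orange siRND3. The RND1 spots part at 24 h on the first siControl array (18.2 against 2.98) and on the siRND3 arrays, while the RND2 spots lie close together on most arrays.

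RND1 was higher at 48 h than at 24 h on the single arrays of both treatments. In siControl cells the log2 difference was 1.44 (SE 0.62, 95% confidence interval −0.039 to 2.92, adjusted p = 0.242 by limma). Without the first siControl replicate it was 0.92, with normexp 0.36 and on the deposited log2 values 0.57. In siRND3 cells it was 0.89 (SE 0.62, 95% confidence interval −0.58 to 2.37, adjusted p = 0.406 by limma), with 0.21 under normexp and 0.35 on the deposited log2 values. Neither passed. By single spot, the difference in siRND3 cells was 0.23 for the first spot and 1.55 for the second. In siControl cells the spots gave 1.01 and 1.86. The second spot was not well above background on any siRND3 array at 24 h, nor on the first siControl replicate. The size of the averaged differences is therefore uncertain. The order was siControl at 48 h, siRND3 at 48 h, siRND3 at 24 h and siControl at 24 h, and no neighbouring pair in it passed the test.

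Within the subfamily, the difference at 24 h was larger for the targeted gene than for either of the others. The RND3 difference minus the RND1 difference was −1.87 on the log2 scale, and the RND3 difference minus the RND2 difference was −1.03. The exact permutation p over the 6 arrays was 0.1 for each of these 2 pairs, also after adjustment over both, and could not be lower. With normexp background correction the 24 h differences were −1.60 for RND3, 0.030 for RND1 and −0.14 for RND2. At 48 h the differences were −1.65 for RND3 and −1.67 for RND2, whose siRND3 value was not well above background.

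**Figure D3:**
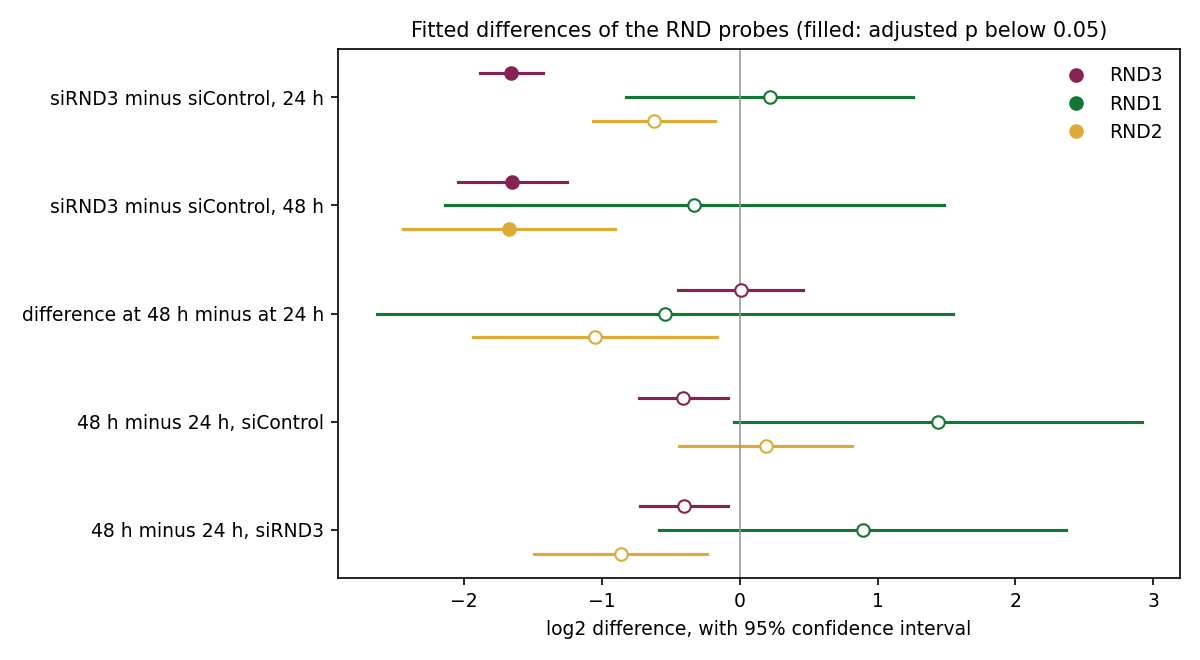
Fitted log2 differences (horizontal axis) of the RND3, RND1 and RND2 probes with 95% confidence intervals, for treatment at each time, the change of that difference with time, and time in each treatment. Filled points had an adjusted p below 0.05. RND3 passed for treatment at 24 h and 48 h and RND2 at 48 h, where its siRND3 value was not well above background. No RND1 difference passed.

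The genes around the Rnd proteins were then described by role, from lists of related small GTPases, Rnd-binding proteins, Rnd-modifying proteins, transcription factors linked to RND genes, and the RhoA-ROCK pathway. A gene was taken as changed if any of its probes passed and all those that passed had the same direction. Over all 14805 genes tested, 16.4% changed at 24 h (7.16% higher and 9.26% lower), with a median log2 difference of 0.04.

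Of 17 related small GTPases, 13 were tested at 24 h, of which 2 rose, 1 fell and 10 did not pass. Their median log2 difference was −0.06. RAC1, which drives the branched actin of lamellipodia, fell by 0.62 on the log2 scale, from 11.66 ± 0.075 to 11.05 ± 0.047 (SD, n = 3 each; adjusted p = 0.00464 by limma). RHOV, an atypical GTPase of the CDC42 branch, rose by 1.03, from 4.35 ± 0.41 to 5.38 ± 0.14 (SD, n = 3 each; adjusted p = 0.0248 by limma). The RHOV difference was 0.32 with normexp and 0.47 on the deposited log2 values, and it did not pass without the filter on dim probes (adjusted p = 0.0680 by limma) or with treatment and time as terms over all 8 arrays (0.72, adjusted p = 0.0972 by limma). RHOBTB2, an atypical GTPase-like protein that works with cullin ubiquitin ligases, rose by 0.48 (adjusted p = 0.0220 by limma). RHOA itself, the GTPase that RND3 opposes, read 13.10 ± 0.061 in siControl and 13.08 ± 0.14 in siRND3 cells, a difference of −0.020 (adjusted p = 0.918 by limma) whose sign turned to 0.017 when arrays were scaled to their 75th percentile. The genes not tested at 24 h were RHOD, RHOH, RHOJ and RHOU.

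At 48 h, 1 of the 13 GTPases passed as higher and 2 as lower, against 27.6% of all genes that changed. RHOBTB2 had a difference of 0.92 (adjusted p = 0.00986 by limma) and RAC1 of −0.36 (adjusted p = 0.117 by limma). RHOV stood at −0.23 (adjusted p = 0.753 by limma). The genes that passed as lower were RAC2 (−0.59, adjusted p = 0.0414 by limma) and CDC42, the latter by its dimmest probe (−1.14, adjusted p = 0.00777 by limma), while its 2 brighter probes gave −0.027 and 0.075 and did not pass. Both, and the other genes outside the named set given at 48 h, were chosen after their values were seen.

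Of 17 Rnd-binding proteins, 15 were tested at 24 h, of which 2 rose, 1 fell and 12 did not pass. Their median log2 difference was 0.13. The fall was in PLXND1, a semaphorin receptor, by 0.36 (adjusted p = 0.0331 by limma). The rises were in FNBP1, a membrane-bending protein that binds RND2, by 0.31 (adjusted p = 0.0433 by limma), and in PRAG1, an RND2-binding pseudokinase, by 0.38 (adjusted p = 0.0311 by limma). The direct RND3 partners did not pass: the difference was 0.23 for ROCK1 (adjusted p = 0.202 by limma), 0.020 for ARHGAP5 (adjusted p = 0.887 by limma) and 0.16 for ARHGAP35 (adjusted p = 0.199 by limma). STMN2 and FLRT3 were not tested.

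At 48 h, 3 of the 15 passed as higher and 2 as lower, against 27.6% of all genes that changed. The differences were −0.69 for PLXND1 (adjusted p = 0.0157 by limma), 0.52 for FNBP1 (adjusted p = 0.0351 by limma) and 0.52 for PRAG1 (adjusted p = 0.0443 by limma). PLXNA1, a semaphorin co-receptor, stood at 0.68 (adjusted p = 0.0447 by limma). ARHGAP5, by its brightest probe, stood at −0.79 (adjusted p = 0.00752 by limma). Its other 3 probes gave 0.0097, −0.24 and 0.0069, none of which passed.

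None of 13 Rnd-modifying proteins, which prenylate, phosphorylate or bind the modified Rnd proteins, passed in limma at 24 h. Of these, 3 had an unadjusted p under 0.05 by limma at any of their probes, in either direction, and SAM called 2. Over all probes, 12% were lower at an unadjusted p under 0.05. That share counts probes and leaves out those that were higher, so the 3 genes cannot be set against it. The median log2 difference of the 13 was −0.03, with a range from −0.37 to 0.31. At 48 h none of the 13 passed as higher and 2 passed as lower, the kinase PRKCA (−0.85, adjusted p = 0.0199 by limma) and the 14-3-3 protein YWHAH (−1.54, adjusted p = 0.00127 by limma). Over all genes, 27.6% changed at 48 h. Of 4 transcription factors linked to RND genes, 1 was tested. This was NR2F1, a nuclear receptor that represses Rnd2 in the developing cortex, which fell by 0.36 (adjusted p = 0.0214 by limma) and stood at −0.19 at 48 h (adjusted p = 0.348 by limma). NEUROG2, ZBTB18 and FOXD3, which are known as regulators of Rnd genes or of related neural programmes, were not well above background on all 3 arrays of either 24 h group.

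All 12 genes of the RhoA-ROCK pathway were tested at 24 h, of which none rose, 1 fell and 11 did not pass. Their median log2 difference was −0.01. The fall was in SSH1, a phosphatase that activates the actin-severing protein cofilin, by 0.50 (adjusted p = 0.0345 by limma) at its brighter probe. The other SSH1 probe gave −0.0032 (adjusted p = 0.989 by limma). At 48 h the brighter probe gave −1.17 (adjusted p = 0.00782 by limma), and SSH1 was the 1 gene of the 12 that passed as lower. The 2 that passed as higher were the formin DIAPH1 (0.70, adjusted p = 0.0141 by limma) and the cofilin kinase LIMK1 (0.63, adjusted p = 0.0123 by limma). Over all genes, 27.6% changed at 48 h.

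Of the 8 genes named as changed at 24 h, RAC1 passed with each of the 6 arrays left out in turn (adjusted p at most 0.0315 by limma). The others lost their call without at least 3 of them: RHOV in 4 of 6 fits, RHOBTB2 in 3, PLXND1, PRAG1, NR2F1 and SSH1 in 5 each and FNBP1 in 6, with no change of direction and an adjusted p of at most 0.142 by limma. RHOV still passed without siControl replicate 1 or 2 and RHOBTB2 without any 1 of the siRND3 replicates. PLXND1 still passed without siRND3 replicate 2, PRAG1 without siRND3 replicate 3, NR2F1 without siRND3 replicate 1 and SSH1 without siControl replicate 1. The log2 differences over these fits ran from 0.83 to 1.24 for RHOV, 0.40 to 0.52 for RHOBTB2, −0.41 to −0.33 for PLXND1, 0.28 to 0.35 for FNBP1, 0.32 to 0.42 for PRAG1, −0.38 to −0.34 for NR2F1, −0.59 to −0.39 for SSH1 and −0.66 to −0.59 for RAC1. Over all probes the number that passed went from 3350 to between 1343 and 2499 in the same fits, each of which has 1 array fewer.

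**Figure D4:**
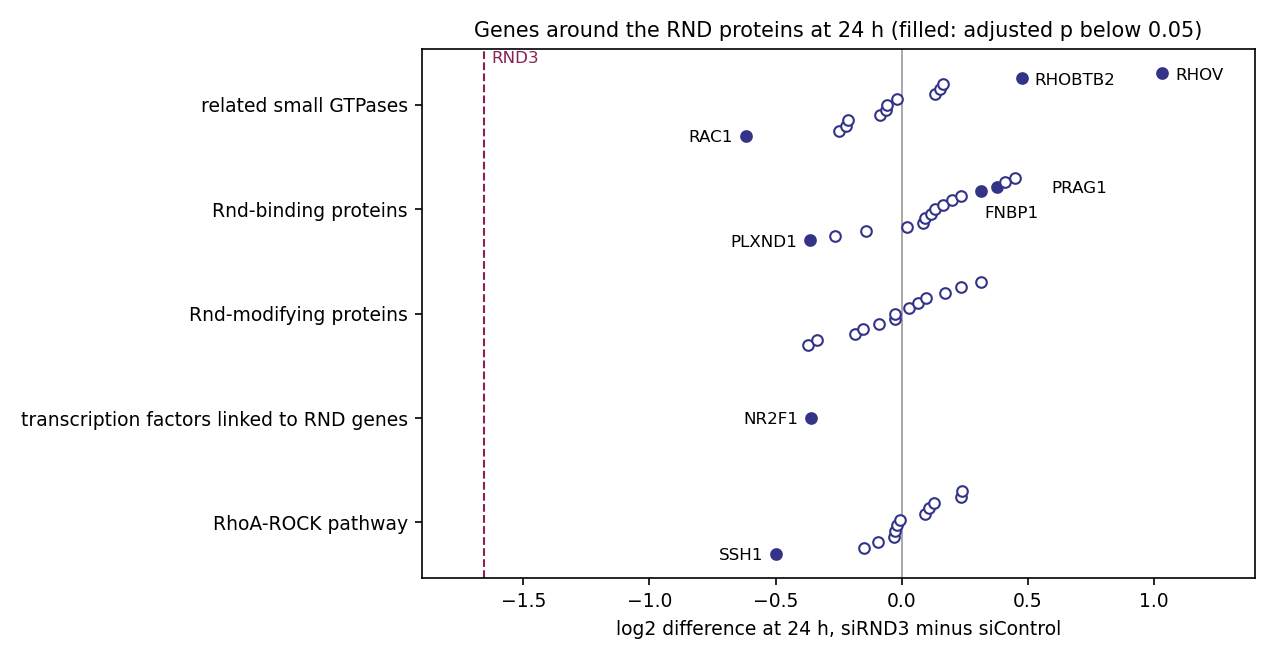
Log2 difference at 24 h, siRND3 minus siControl (horizontal axis), of each tested gene of the 5 lists, 1 point per gene from its probe with the highest mean; filled and named points had an adjusted p below 0.05. The dashed line marks RND3 at −1.66, below every gene of the lists, and RHOV at 1.03 is the highest.

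The probes whose pattern was most like that of RND3 were ranked over the 8 arrays, among 18119 probes with a gene symbol that were well above background on all of them. The 5 highest Pearson correlations were those of KIF3B (0.997), CASP6 (0.9951), LRRC57 (0.995), RTF1 (0.9943) and ERBIN (0.9936). KIF3B is a kinesin motor subunit, CASP6 an executioner caspase and ERBIN a scaffold that binds the ERBB2 receptor. At 24 h they differed by −0.95, −1.31, −2.11, −0.40 and −1.05 on the log2 scale, in the same order. The 3 lowest were MIDN (−0.9897), TMEM41B (−0.986) and POU3F1 (−0.9813). These points share arrays and treatment groups, so the values describe the ranking only.

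For RND1 the highest were AMBN (0.9679), RASL11A (0.9634), NDUFA2 (0.9422), FBXW12 (0.9419) and CNOT4 (0.9283), and the lowest were FOXK1 (−0.952), SNX7 (−0.9407) and FLJ43315 (−0.9164). The 24 h differences of these 8 genes lay between −0.12 and 0.20, and none passed. RND2 was not ranked, because its probe was not well above background on all 8 arrays. The RND1 probe met that rule by only 1 of its 2 spots on the first siControl replicate and on each siRND3 array at 24 h. Its ranking therefore rests partly on readings near the background.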

How the data were processed

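Total RNA of U87 cells was measured on 8 one-colour Agilent human arrays, and groups were taken from the labels. The authors extracted spot intensity with Agilent Feature Extraction 10.7.3.1, whose processed signal was, per the file headers, corrected for background on each array. A second table deposited by the authors holds log2 values, quantile-normalised according to the methods. Its rank order within each array was that of the spot medians (Spearman correlation 1), so no background that differed from spot to spot had been subtracted. Rank order cannot show whether a value common to all spots of an array was subtracted.

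Here, processed intensities were taken as log2 and quantile-normalised across the 8 arrays, on 58717 non-control spots of 62976. Outlier spots were then dropped (0.364% to 0.530% per array) and spots of a probe averaged. A probe was well above background on an array when at least 50% of its spots were so marked. Tests covered the 28759 probes that met this on each array of either 24 h group. Where a group was not well above background, its fold was taken against its own value or the lowest signal well above background, whichever was higher. Such a fold is an estimate of uncertain size. Probes were named by transcript accession from the RefSeq table of GRCh38.p14 (25422 of 42405 matched). The number of arrays limits the precision.

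The 24 h arrays were compared with limma 3.58.1 in R 4.3.3 without covariates, and all 8 arrays in a limma model of 4 groups, where single 48 h arrays were assumed to vary like the 24 h arrays. P-values were adjusted by Benjamini-Hochberg over all probes tested, with a threshold of 0.05. Scripts were tested on simulated data. The methods' test, SAM, was an alternative, as were 75th percentile scaling, normexp (offset 50, run on spot medians since the files used here hold no spot mean), the deposited log2 values, normalisation over the 24 h arrays, other filters, the replicate block, both treatment and time as terms, array weights, gene means, outliers kept and each 24 h array left out. Replicate numbers did not pair the arrays (correlation of same-numbered deviations 0.0020, −0.012 and 0.13).

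The members and lists were chosen with earlier results of these data known, and some items are not reported here. Named genes were every RND probe; RHOA, ROCK1, ARHGAP5 and ARHGAP35; list genes past the threshold at 24 h; and the 5 highest and 3 lowest probes by likeness. A gene with several probes is given by the probe with the highest mean at 24 h.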

Additional observations from a re-analysis of the deposited data

Results flagged for a closer look

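ARHGAP5, a RhoA-inactivating protein that RND3 binds, had a knock-down difference that differed between the times: the difference at 48 h minus that at 24 h was −0.81 on the log2 scale (SE 0.14, adjusted p = 0.0452 by limma), with 0.020 at 24 h and −0.79 at 48 h. The 48 h values rest on single arrays. With each 24 h array left out in turn the value lay between −0.83 and −0.77, and it passed in none of these 6 fits (adjusted p between 0.0652 and 0.121 by limma). The other 3 ARHGAP5 probes gave 0.093, −0.40 and −0.066, none of which passed (adjusted p = 0.893, 0.532 and 0.920 by limma). YWHAH, a 14-3-3 adaptor that binds modified Rnd proteins and was chosen after its values were seen, had a value of −1.20 (SE 0.17, adjusted p = 0.0302 by limma), with −0.34 at 24 h and −1.54 at 48 h. With each 24 h array left out it lay between −1.26 and −1.13 and passed in 1 of 6 fits, that without siRND3 replicate 3 (adjusted p between 0.0492 and 0.0917 by limma). Of all probes, 2.73% passed this test. No group held enough arrays for the test of single arrays far from the others.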

How the results depend on the processing

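The RND3 difference at 24 h kept its direction and its call under all 20 alternatives (−1.74 to −1.60). Its change with time, 0.0064, took the other sign without siRND3 replicate 1 (−0.053) or 2 (−0.022), within −0.053 to 0.094 over the arrays left out. RND1 at 24 h took the other sign without siControl replicate 1 (−0.30; −0.30 to 0.50 over the arrays left out) and on its second spot alone (−0.089), an alternative chosen after seeing the data. RND2 at 24 h passed with SAM (−0.62, q = 0.0315), with treatment and time as terms over all 8 arrays (−0.89, adjusted p = 0.0335 by limma), with gene means (−0.62, adjusted p = 0.0498) and without siRND3 replicate 2 (−0.81 to −0.49 over the arrays left out). At 48 h it did not pass with normexp (−0.38). In RHOA the sign turned with 75th percentile scaling (0.017) and over the arrays left out (−0.086 to 0.054), and in ARHGAP5 at 24 h with treatment and time as terms (−0.18) and over the arrays left out (−0.014 to 0.047). The causes were not tested.

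The list counts were small and moved with the setting, as did the count over all probes: 3350 as reported, 4209 with normexp, 3878 on the deposited log2 values, 4672 with both terms, 5070 with SAM and 1343 to 2499 over the arrays left out. Related small GTPases (3 changed) gave 5 with SAM and 1 to 3 over the arrays left out. Rnd-binding proteins (3 changed) gave 5 each with normexp, SAM and both terms, and 0 to 1 over the arrays left out. Rnd-modifying proteins (0 changed) gave 2 each with normexp, the deposited log2 values, SAM and gene means, 1 each with the filter on all 24 h arrays, array weights and both terms, and 0 to 1 over the arrays left out. The transcription factors (1 changed) gave 0 to 1 over the arrays left out. The RhoA-ROCK pathway (1 changed) gave 2 each with normexp and both terms, 0 each without the filter and with gene means, and 0 to 1 over the arrays left out.

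With the replicate number as a block, 1651 of the probes passed at 24 h. RND3 passed with the block (adjusted p = 0.00815 by limma), and RND1 (0.803) and RND2 (0.0799) did not. The counts with the block were 1 of the related small GTPases and 0 in each of the other lists. Signal over background limits RND1 and RND2, whose spots lay close to the local background, and the single arrays limit every statement on 48 h.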
